A study of Schizosaccharomyces pombe with 6 samples.

Results

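The genes examined here encode protein components of the spliceosome in fission yeast (Schizosaccharomyces pombe). They were chosen by the product text in the authors' deposited table, which had to name the spliceosome, a splicing factor or a U1, U2, U5 or U4/U6 particle, with nrl1, uap56 and cbc1 and all noncoding RNAs left out. This gave 64 genes of the 6988 features counted, and the rule used no measured value. Poly(A)+ RNA came from log-phase cells of 2 h- strains in YES, a rich medium, and was read by RNA-seq. The control strain was h- pla1-WT::kanMX and the mutant strain h- pla1-Y86D::kanMX, so both carried the kanMX drug marker. Each genotype was 1 strain with 3 libraries, called replicate experiments by the submitters. Separate cultures are not stated, so p-values here measure only how much these libraries varied, which may be technical.

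Pre-mRNA splicing is carried out by small nuclear ribonucleoproteins (snRNPs) that assemble on each intron. The U1 snRNP recognises the 5' splice site and the U2 snRNP the branch point, after which the U4/U6.U5 tri-snRNP joins. The Prp19 complex and RNA helicases then remodel the assembly into the catalytic form and later take it apart. Fission yeast is a common model for this process because many of its genes hold introns and its splicing factors resemble those of humans. Pla1 is the nuclear poly(A) polymerase, which builds the mRNA tail after cleavage.

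Library totals ranged from 17594840 to 21849845 counts. All 64 genes passed the filter on low counts, with mean counts from 141 for sap10 to 7459 for srp2. Levels below are CPM, the counts per 1000000 of the library total after scaling by the trimmed mean of M-values (TMM), and changes are log2 fold changes of pla1-Y86D over pla1-WT from edgeR's quasi-likelihood test, called at a Benjamini-Hochberg adjusted p under 0.05. The allele is a point mutation, so the level of pla1 does not check the labels; it was higher in the mutant (0.37, SE 0.045). Of 4 matched genes that mark h+ cells, 3 were higher and 1 lower, and their summed level was 414 to 433 CPM in control and 435 to 452 CPM in mutant libraries. Of the 6 genes that mark h- cells 2 were higher and 2 lower, and they summed to 99.6 to 107 and 94.2 to 99.3 CPM. The h+ list lacked mat1-Pc and mat1-Pi, which were not matched, and its sum was above that of the h- list in both strains. These sums do not check the labelled mating type. The 6 genes of meiosis or stationary phase were all higher, at 299 to 312 CPM summed in control and 2359 to 2433 CPM in mutant libraries. No matched marker stood at 0, and the part of such cells in the results was not tested. In bulk RNA, fewer cells of a type and less RNA per cell cannot be told apart.

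The spliceosome protein genes changed by small amounts and in both directions. In the mutant 17 were higher, 32 were lower and 15 were not called. Among all 6267 features tested, 40.1% were called higher, 41.1% lower and 81.2% in either direction, against 26.6%, 50% and 76.6% of the spliceosome genes. The median log2 fold change was -0.07 over the 64 genes, -0.05 over the 4996 protein-coding features tested and -0.00 over all features. With another scaling of the same features, 15 to 19 genes were higher and 29 to 35 lower. When protein-coding features alone entered both the scaling and the fit, 24 genes were higher and 20 lower, and the median was -0.02. The distance of the genes' median from that of all protein-coding features was -0.02 in both fits.

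The size of the changes was limited. Values lay between -1.08 and 0.57, with the middle 50% of the genes between -0.21 and 0.11, a width of 0.32 against 0.52 over protein-coding features. The log2 fold change was within 0.25 of zero for 39 genes (60.9%), against 47.2% of protein-coding features and 42.2% of all features. A called change of at least 1.5-fold was found in 2 genes (3.12%), both lower, against 24.7% of all features and 18.5% of protein-coding features. The libraries of the strains did not overlap in 50 genes (78.1%), against 81.9% of all features. Within a strain, the median SD of a gene over its libraries was 0.042 on the log2 CPM scale.

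**Figure D1:**
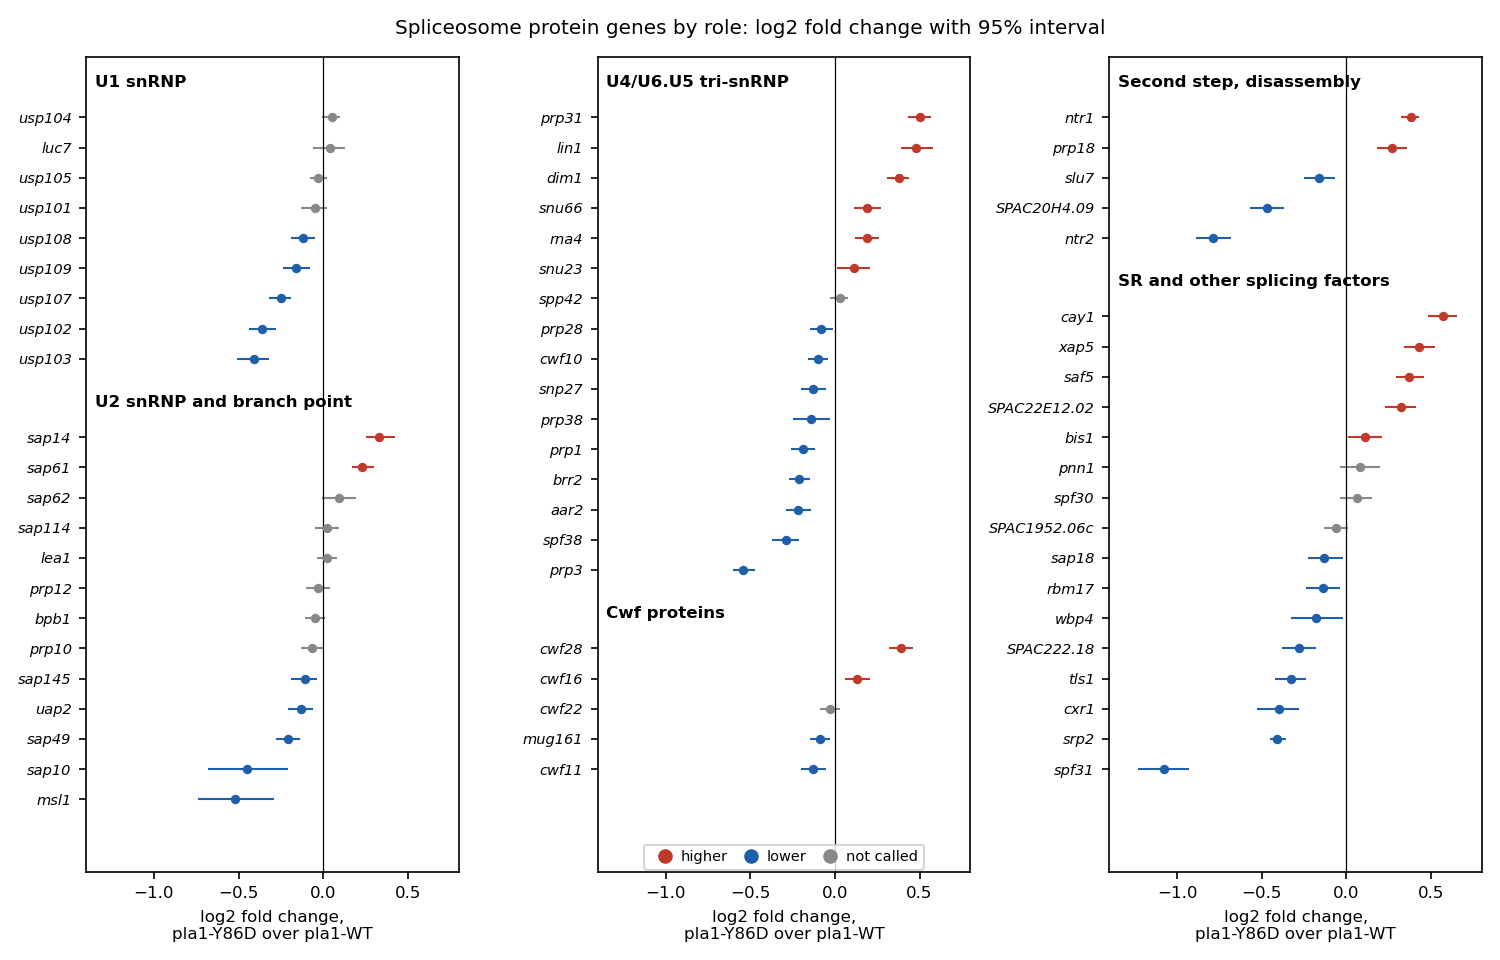
Log2 fold change of each of the 64 spliceosome protein genes, pla1-Y86D over pla1-WT, by role, with bars for the 95% interval from the edgeR fit and colours for the call. Most points lie within 0.25 of 0, cay1 at 0.57 lies highest, and spf31 at -1.08 and ntr2 at -0.79 lie lowest.

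Of the 9 genes of the U1 snRNP, which makes the first contact with the intron, edgeR called 5 lower (55.6%), 0 higher and 4 neither, and their median was -0.12. Over protein-coding features 46.8% were lower and 35.6% higher, and 82.4% were called in either direction. At an unadjusted p under 0.05 the counts were the same, as they were with DESeq2 and limma-voom. With upper-quartile scaling (0.07) or protein-coding features alone (0.10) usp104 was called higher. In the fit on protein-coding features alone usp108 was no longer called, which left 4 lower. The largest decrease was in usp103, whose protein helps the U1 RNA pair with the 5' splice site. Its level was 49.8, 46.2 and 46.6 CPM in the control libraries and 35, 37.1 and 35.1 CPM in the mutant libraries. All mutant libraries were below all control libraries (log2 fold change -0.41, SE 0.046, edgeR adjusted p = 7.07e-10). For usp102, whose protein binds a stem-loop of the U1 RNA, the libraries held 73.0, 69.5 and 72.0 CPM against 55.8, 53.4 and 58.0 CPM (-0.36, SE 0.039). The groups were again separate. Opposite to it lies vps25, which was not called (0.11). Smaller decreases were found in usp107 (-0.25), usp109 (-0.16) and usp108 (-0.12). The U1-70K gene usp101, whose protein binds the U1 RNA directly, stood at 77.8 ± 2.1 CPM in the control and 74.9 ± 2.0 CPM in the mutant (SD, n = 3 per strain), and it was not called (-0.05, 95% interval -0.13 to 0.02). The genes usp104, luc7 and usp105 encode relatives of budding yeast Prp40, Luc7 and Prp39. For usp104 the libraries were at 173, 179 and 179 CPM against 188, 181 and 179 CPM (0.05). For luc7 they were at 45.2, 42.7 and 42.8 CPM against 41.5, 44.8 and 47.1 CPM (0.04). For usp105 they were at 198, 192 and 195 CPM against 189, 190 and 194 CPM (-0.03). In all 3 genes the strains overlapped or touched, and none was called.

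Of the 13 genes of the U2 snRNP and of branch point recognition, 2 were higher, 5 lower and 6 not called, around a median of -0.05. Calls in either direction made up 53.8% of them, against 81.2% of all features. The gene msl1, for a protein bound to the U2 RNA, was at 7.92, 9.24 and 8.94 CPM in the control and 6.36, 5.48 and 6.43 CPM in the mutant. The strains were separate (log2 fold change -0.52, SE 0.11, edgeR adjusted p = 7.56e-05). This gene and sap10 had the lowest counts of the 64, with means of 150 and 141, and the widest intervals, -0.74 to -0.29 and -0.68 to -0.21. Within the SF3b complex, which holds the branch helix, the 6 genes that the rule took did not move together. Its smallest subunit gene sap10 had 7.77, 7.60 and 8.80 CPM against 5.15, 5.92 and 6.57 CPM (-0.45, edgeR adjusted p = 0.000688). By contrast sap14, for the p14 subunit that touches the branch point, had 43.9, 44.0 and 43.0 CPM against 53.1, 55.5 and 56.0 CPM (0.33, SE 0.042). Both separations were complete, in opposite directions. Opposite to sap14 lies utp18, which was higher by less (0.15). The subunit genes sap49 (-0.21) and sap145 (-0.11) were lower, and prp12 was not called, at 94.1, 88.7 and 89.3 CPM against 87, 87.8 and 91.4 CPM (-0.03). The gene of the large SF3B1 scaffold, prp10, was at 142, 144 and 150 CPM against 143, 142 and 131 CPM, and was not called (-0.07, edgeR adjusted p = 0.0542). It was called lower at -0.09 each time when pla1-WT replicate 1, pla1-Y86D replicate 1 or pla1-Y86D replicate 2 was left out. The sap145 call was lost without pla1-Y86D replicate 1 (-0.08, edgeR adjusted p = 0.0682).

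Of the 3 genes of SF3a, the other U2 complex, sap61 was higher (0.23, SE 0.031), while the other two were not called. The sap62 libraries were at 34.6, 35.3 and 35.1 CPM against 38.8, 36.6 and 36.4 CPM (0.09), and those of sap114 at 89.9, 87 and 92.6 CPM against 93.6, 90.2 and 90.2 CPM (0.02). The first pair of groups was separate and the second overlapped. The U2 protein gene lea1, whose product is the partner of Msl1 on the U2 RNA, was at 146 ± 3.8 CPM and 148 ± 2.4 CPM (0.02, 95% interval -0.04 to 0.08). The branch point binding protein gene bpb1 was not called, at 127, 123 and 126 CPM against 120, 125 and 120 CPM (-0.05), and uap2 was lower by a small amount (-0.13).

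The 16 genes of the U4/U6.U5 tri-snRNP were divided into 6 higher, 9 lower and 1 not called, and their median was -0.09. Calls in either direction made up 93.8% of them, against 81.2% of all features. On the side of the increases, prp31, for a protein that binds the U4 RNA, stood at 70.4, 73.7 and 70.1 CPM in the control and 101, 99.2 and 102 CPM in the mutant. The groups were far apart relative to their spread (log2 fold change 0.50, SE 0.034, edgeR adjusted p = 2.6e-15). Opposite to prp31 lies rud3, which was lower (-0.15). For lin1 the libraries held 32.9, 32.4 and 34.8 CPM against 46.4, 45.2 and 48.0 CPM (0.48, SE 0.047). For dim1, a small thioredoxin-fold protein of the tri-snRNP, they held 87.2, 89.4 and 91.4 CPM against 114, 114 and 120 CPM (0.38, SE 0.033). In both genes every mutant library was above every control library. Opposite to lin1 lies rvb2, at a higher level and with a like change, from 298 ± 5.5 to 409 ± 8.2 CPM (0.45). The part of rvb2 reads in the lin1 count was not tested. The increases in snu66 and rna4 (0.19 each) and snu23 (0.11) were smaller. Without pla1-WT replicate 3 (0.06) or pla1-Y86D replicate 3 (0.09) snu23 was not called.

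On the other side, prp3, for a U4/U6 protein, was at 112, 111 and 112 CPM in the control and 76.4, 77.4 and 77.1 CPM in the mutant. The libraries of each strain were close together and the strains apart (-0.54, SE 0.032, edgeR adjusted p = 5.43e-17). Its annotated transcript overlaps nnf1 on the same strand, which was lower by less (-0.18), and uso1 on the opposite strand (-0.28). The U5 genes of the catalytic centre changed little. The gene of the central scaffold, spp42 (Prp8 of budding yeast), stood at 195 ± 0.75 CPM and 199 ± 5.3 CPM and was not called (0.03, 95% interval -0.03 to 0.08). The helicase gene brr2, whose product unwinds U4 from U6, was lower (-0.21), as was the GTPase gene cwf10 (-0.10). Decreases were also called in spf38 (-0.29), the U5 assembly factor gene aar2 (-0.22), prp1 (-0.19), prp38 (-0.14), snp27 (-0.13) and the helicase gene prp28 (-0.08). The ribosomal protein gene rps1401, which overlaps aar2 on the opposite strand, was lower by more (-1.32, from 296 ± 8.4 to 118 ± 1.7 CPM), and this pair was named after its values were seen. The library kit was stranded, but the sources used here do not give the counter's strand setting, and the part of opposite-strand reads in aar2 was not tested. Leaving out pla1-WT replicate 2 (-0.07), pla1-WT replicate 3 (-0.08) or pla1-Y86D replicate 1 (-0.05) removed the prp28 call, and leaving out pla1-WT replicate 2 the prp38 call (-0.09).

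The Cwf proteins were first found together with Cdc5, a Prp19 complex subunit. Of the 5 genes placed in this group 2 were higher, 2 lower and 1 not called, so 80% were called, against 81.2% of all features. The rule also took cwf10, which is counted with the tri-snRNP above. The cwf28 gene was at 82.6, 84.5 and 86.6 CPM in the control and 105, 115 and 114 CPM in the mutant, with no overlap (0.39, SE 0.035, edgeR adjusted p = 2.05e-12). The RNA annotated antisense to it was higher as well (1.47), at 2.67 ± 0.23 and 7.40 ± 0.50 CPM, while fes1, also on the opposite strand, was lower (-0.27). The gene cwf16 was higher by 0.13, and mug161, of the CwfJ family, was lower (-0.09), though not without pla1-Y86D replicate 1 (-0.05). The gene cwf22 was not called, at 98.6, 102 and 104 CPM against 99.4, 99 and 101 CPM (-0.03). The ATPase gene cwf11 was at 63.8, 63.5 and 63.6 CPM against 57.6, 58.7 and 58.4 CPM (-0.13, edgeR adjusted p = 0.00254). In the reference annotation 1 gene lies between cwf11 and pla1. This neighbour, gta1, was named after its value was seen, and it fell by 0.92 on the log2 scale, from 58.2, 64 and 60.9 CPM to 31.2, 31.9 and 33.9 CPM. Its bearing on cwf11 was not tested.

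Of the 5 genes that act at the second step or in disassembly, or encode the Dhx35-type helicase, 2 were higher and 3 lower, beside 81.2% called over all features. The disassembly partners moved in opposite directions. In budding yeast, Ntr1 and Ntr2 form a complex that brings the helicase Prp43 to the spent spliceosome. Here ntr2 was at 45.3, 45.4 and 43.5 CPM in the control and 27.7, 24.8 and 25.4 CPM in the mutant. The mutant level was 0.58 of the control level (-0.79, SE 0.051, edgeR adjusted p = 4.59e-16), and among the 64 only spf31 fell further. By contrast ntr1 was at 121, 122 and 122 CPM against 156, 162 and 156 CPM (0.38, SE 0.028, edgeR adjusted p = 2.48e-14). Opposite to ntr1 lies the noncoding RNA prl14, which rose from 2.64 ± 0.15 to 25.5 ± 1.3 CPM. The part of its reads in the ntr1 count was not tested. The prp43 gene itself was not called, at 183 ± 5.1 and 187 ± 1.4 CPM (0.03, SE 0.026), and was also chosen after its value was seen. Of the genes of second-step factors, prp18 was higher (0.27) and slu7 lower (-0.16). The SPAC20H4.09 gene, annotated as a spliceosomal Dhx35 helicase, had 47.4, 43.3 and 47.7 CPM against 33.8, 31.7 and 33.9 CPM (-0.47, SE 0.049). The RNA annotated antisense to it was higher (0.13).

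The remaining 16 genes encode SR proteins and other splicing factors. Of these 5 were higher, 8 lower and 3 not called, so 81.2% were called, against 81.2% of all features. They held both ends of the whole range. The lowest value belonged to spf31, which encodes a J-domain (DNAJ) protein. Its libraries were at 30.3, 34.5 and 30.5 CPM in the control and 13, 15.4 and 16.4 CPM in the mutant. This was the single called change of at least 2-fold among the 64 (-1.08, 95% interval -1.23 to -0.93, SE 0.074, edgeR adjusted p = 3.95e-14). Both genes that overlap spf31 on the opposite strand, anp1 (-0.60) and rhp18 (-0.41), were lower too. The highest value belonged to cay1, the gene of cactin, with 43.0, 42.4 and 45.5 CPM against 61.4, 67.1 and 65.2 CPM (0.57, SE 0.043, edgeR adjusted p = 3.57e-14). A noncoding RNA that overlaps cay1 on the same strand, SPNCRNA.1455, was higher by 0.54, at 9.65 ± 0.79 and 14 ± 0.78 CPM, and the RNA annotated antisense to cay1 was higher by 0.28.

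The SR protein gene srp2 had the highest CPM of the 64 and the smallest standard error. It was at 423, 423 and 419 CPM in the control and 317, 320 and 317 CPM in the mutant (log2 fold change -0.41, SE 0.023, edgeR adjusted p = 1.26e-17). The RNA annotated antisense to srp2 was higher (1.48). SR proteins carry arginine-serine repeats that are phosphorylated by dedicated kinases. The gene of such a kinase, dsk1, was lower by the same rounded value (-0.41, from 60 ± 1.1 to 45.1 ± 1.0 CPM), and it was singled out after its value was seen. SPAC222.18, of the Srp1 family, was lower as well (-0.28). The cxr1 gene had 27.5, 32.2 and 30.9 CPM against 23.1, 23.2 and 22.5 CPM, with the strains separate (-0.40, SE 0.062). Other decreases were found in tls1 (-0.33), which is needed for splicing of shelterin mRNAs, and in wbp4 (-0.18), rbm17 (-0.14) and sap18 (-0.13). The wbp4 libraries overlapped, at 20.4, 18.8 and 23.6 CPM against 19.6, 17.7 and 18.4 CPM (edgeR adjusted p = 0.0354). This call was lost without pla1-WT replicate 3 (-0.08), pla1-Y86D replicate 2 (-0.14) or pla1-Y86D replicate 3 (-0.17). For sap18, given in full because its groups overlapped, the libraries were at 39.2, 35.1 and 38.9 CPM against 34.6, 33.3 and 35.6 CPM. They overlapped too, and the call was lost without pla1-WT replicate 1 (-0.10), pla1-WT replicate 3 (-0.11) or pla1-Y86D replicate 2 (-0.10). The rbm17 call was lost without pla1-Y86D replicate 1 (-0.12). In the annotation sap18 and prp18 overlap each other on opposite strands.

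Increases in this group were found in xap5 (0.43), saf5 (0.37), the Rbm42-like SPAC22E12.02 (0.32) and bis1 (0.11). The bis1 libraries overlapped, and its call was lost without pla1-WT replicate 2 (0.07), pla1-WT replicate 3 (0.10) or pla1-Y86D replicate 3 (0.06). The xap5 libraries were at 36.2, 37.1 and 36.1 CPM against 50.5, 46.9 and 49.8 CPM, and those of saf5 at 36.8, 37.2 and 38.6 CPM against 48.8, 48.7 and 48.6 CPM. In both the strains were separate. For SPAC22E12.02 they were at 48.8, 48.2 and 54.7 CPM against 64.8, 64.2 and 61 CPM (SE 0.045), and sdj1 on the opposite strand was higher by more (0.61). The annotated neighbour SPCC1020.13c, which overlaps xap5 on the same strand, was higher by 0.39. Not called was the pinin gene pnn1, at 24.5, 26.6 and 26.6 CPM against 26.9, 28.4 and 26.9 CPM (0.08). Nor was spf30, at 34.6, 35 and 34.4 CPM against 36, 36.4 and 35.7 CPM (0.06). SPAC1952.06c was at 82.9, 83.7 and 80.9 CPM against 79.4, 77.2 and 80.4 CPM (-0.06) and was not called either.

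**Figure D2:**
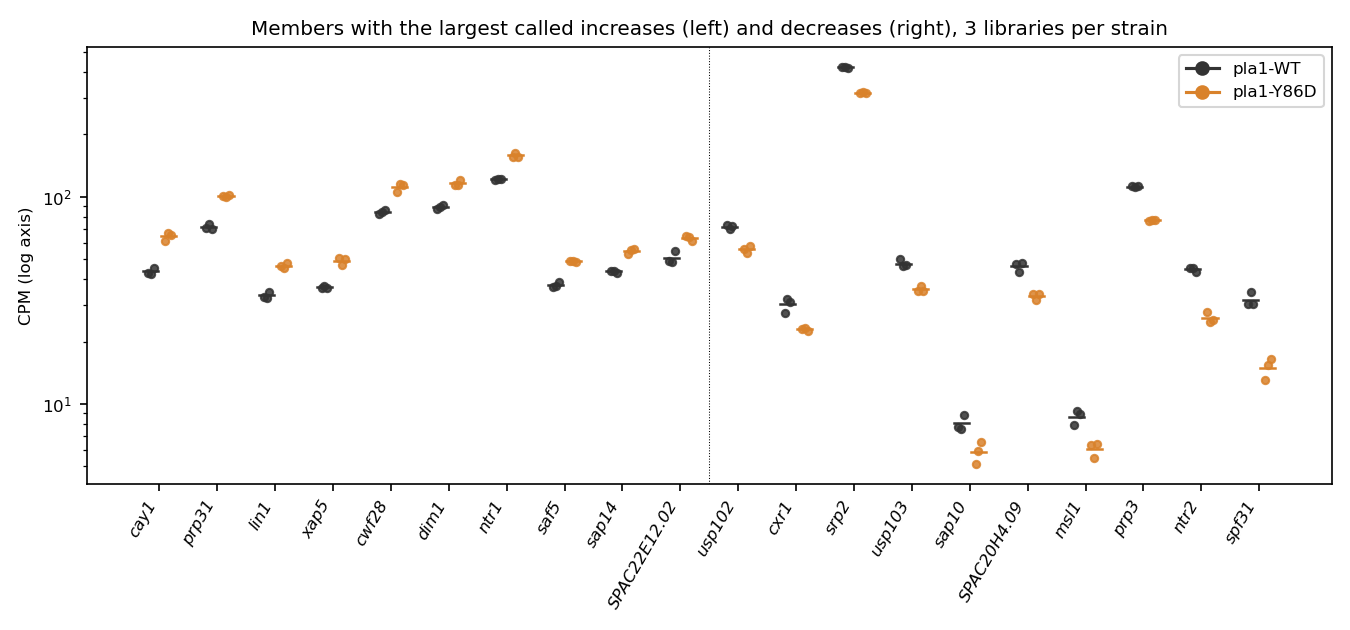
Level in each library, in CPM on a log axis, of the 10 spliceosome protein genes with the largest called increases and the 10 with the largest called decreases, with short bars at the mean of 3 libraries. In all 20 genes the libraries of the strains are apart, and the shifts are small beside the differences in level between genes.

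The 15 genes not called were measured closely. Their log2 fold changes lay between -0.07 and 0.09, and their 95% intervals between -0.13 and 0.20. In 4 of them, sap62, pnn1, spf30 and SPAC1952.06c, the libraries of the strains did not overlap. Conversely, the libraries overlapped in 3 genes that were called, bis1, sap18 and wbp4. Of the 49 calls, 35 were made in the same direction under all 14 alternatives, 15 of them higher and 20 lower. The other 14 genes had changes of at most 0.18 in size and each lost its call under at least 1 alternative. With protein-coding features alone 12 decreases were no longer called, those of cwf10, cwf11, mug161, prp28, prp38, rbm17, sap145, sap18, snp27, uap2, usp108 and wbp4. In that fit 7 further genes were called higher, lea1, pnn1, sap114, sap62, spf30, spp42 and usp104. An adjusted p under 0.05 stood in the authors' deposited table for 41 of the 64 genes, 15 higher and 26 lower, and all 41 were called here in the same direction.

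**Figure D3:**
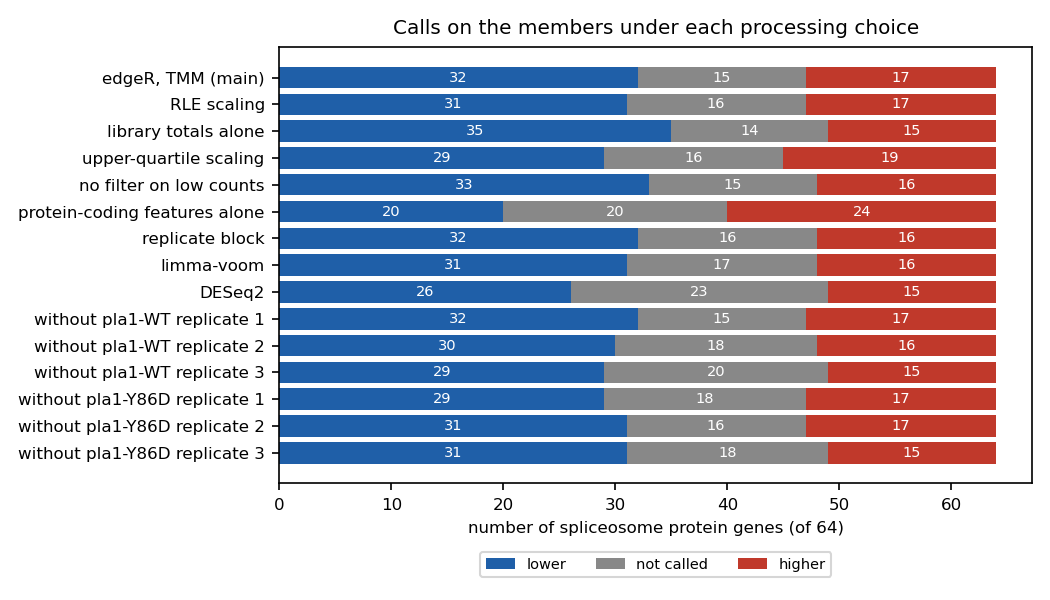
Number of the 64 spliceosome protein genes called lower, not called and called higher under the main fit and each of 14 alternatives (bars, in genes). The lower calls range from 20 with protein-coding features alone to 35 with library totals alone.

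Per length, the spliceosome protein genes lay near the middle of the coding transcripts. The level in pla1-WT, as reads per kb of annotated transcript per 1000000 counts, had a median of 38.5 over the 64 genes and 41.4 over protein-coding features. For 52 of the 64 it fell between the quartiles of protein-coding features, 20.5 and 93.8. The highest levels per length were those of srp2 (244), lea1 (158) and dim1 (149), and the lowest those of wbp4 (7.97), msl1 (12.6) and cwf11 (16). Level and log2 fold change had a Spearman rho of 0.12 over the 64 genes, which share the same libraries, and of -0.08 over protein-coding features. The transcript length and the log2 fold change had a rho of 0.01 and -0.15. The summed share of counts on the 64 genes was 0.514%, 0.510% and 0.513% in the control and 0.486%, 0.486% and 0.495% in the mutant. The strains did not overlap, but these shares are of library totals without TMM scaling. The gene srp2 alone went from 422 to 318 CPM after scaling, and its part in the lower share was not tested.

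The spliceosome genes are themselves substrates of splicing. In the reference annotation 39 of the 64 (60.9%) hold at least 1 intron, against 49% of protein-coding features tested, and srp2 holds the most, 9. Of the 39 genes with introns 10 were higher and 21 lower (median -0.10), and of the 25 without 7 were higher and 11 lower (median -0.05). Over all protein-coding features with introns 36.2% were higher and 44.9% lower (median -0.04), and over those without 35% and 48.5% (median -0.07). All 5 spliceosome genes whose log2 fold change exceeded 0.5 in size, namely spf31, ntr2, prp3, msl1 and cay1, hold introns. The next by size, prp31, lies just below that bound (0.50 when rounded) and holds none. Over all protein-coding features, changes below 0.5 in size made up 80.7% of those with introns and 70.5% of those without. Gene counts do not separate spliced from unspliced reads, so splicing itself was not measured.

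**Figure D4:**
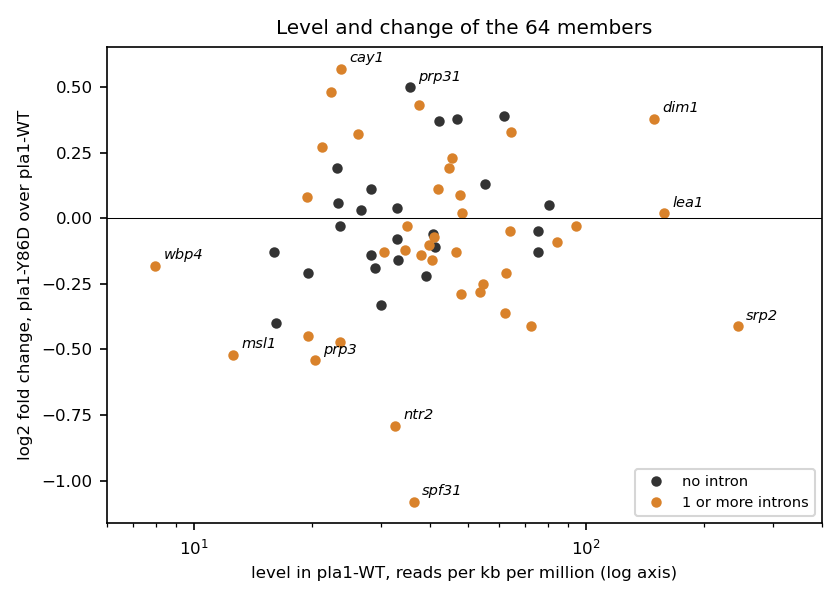
Log2 fold change of the 64 spliceosome protein genes against their level in pla1-WT, in reads per kb of transcript per 1000000 counts on a log axis, coloured by whether the annotation gives the gene an intron. Changes of both signs occur across the range of levels, from wbp4 at 7.97 to srp2 at 244.

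Other splicing genes, listed by name and not taken by the product rule, also moved both ways. Of 75 tested, 35 were higher (46.7%), 23 lower (30.7%) and 17 not called (median 0.04). Over all features tested, 40.1% were higher and 41.1% lower. Calls in either direction made up 77.3% of the list and 81.2% of all features. The list includes 7 genes whose main role is outside splicing, among them cuf2, a meiotic transcription factor gene with the largest increase (2.86, at 0.163 ± 0.13 and 1.19 ± 0.32 CPM). The RNA-binding protein gene rsd1 rose from 231 ± 5.4 to 382 ± 7.5 CPM (0.73, SE 0.025), and sde2, for a ubiquitin-like regulator of splicing, from 35.9 ± 0.24 to 55.2 ± 3.0 CPM (0.62). The largest decreases were in the cyclophilin gene cyp1 (-0.87, 63.9 ± 3.4 to 35.1 ± 0.26 CPM), in lsm1 of the cytoplasmic decapping complex (-0.77, 132 ± 5.2 to 77.6 ± 2.1 CPM) and in smf1 (-0.56, 68.5 ± 3.0 to 46.6 ± 0.68 CPM). The Prp19 complex with the other Cwf proteins had 12 higher and 8 lower of 23, the Lsm2-8 ring that binds the U6 RNA 3 higher and 1 lower of 7, and the SMN complex 1 higher and 2 lower of 5. In the Sm ring, which encircles the other snRNAs, 3 genes were higher and 2 lower of 7. Named after their values were seen, these were smg1 (0.43), smd1 (0.39) and smb1 (0.11) above, and sme1 (-0.55) and smf1 below.

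**Figure D5:**
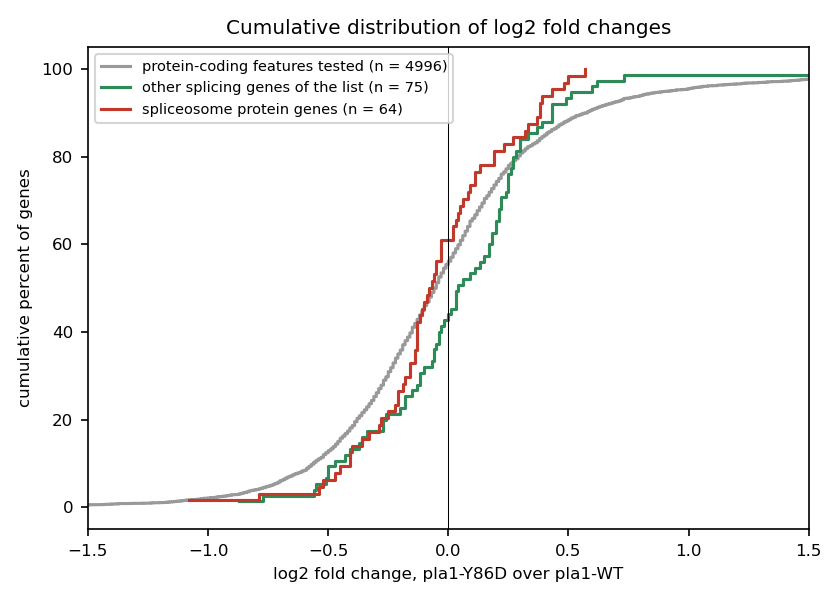
Cumulative percent of genes against log2 fold change, pla1-Y86D over pla1-WT, for the 64 spliceosome protein genes, 75 other splicing genes and 4996 protein-coding features tested. The curve of the spliceosome genes is steeper than that of protein-coding features, with 60.9% against 47.2% of genes within 0.25 of 0, and the axis leaves out values beyond 1.5 in size.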

How the data were processed

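The deposited count table gives whole-number counts per annotated feature, not normalized. The submitters' processing notes name build ASM294v2 and the tools HTSeq 0.10.0, HISAT2 2.1.0, SAMtools, DESeq and DESeq2. How the counter treated strand and reads aligned more than once, and which annotation release it used, is not given in the sources used here. Per the labels' protocols the library kit was stranded. The authors' second table is a DESeq2 comparison, per the file headers. Its signal columns are the authors' means of counts divided by size factors, its log2 columns the authors' fold change and standard error, its Wald statistic is the authors' score, and the raw and adjusted p-value columns were used as deposited.

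The test was edgeR 4.0.16 run in R 4.3.3 on the counts (filterByExpr, TMM, robust quasi-likelihood, strain as the single term, 6 libraries), with Benjamini-Hochberg adjustment over 6267 features. The script was tested on simulated counts. Intervals are 95% from the fold change and its standard error. Alternatives used DESeq2 1.42.0, limma-voom 3.58.1, other scalings and filters, and each library left out. No library repeated another, since chi-square per degree of freedom was 1.63 to 4.83 in the 6 pairs within strains. All 64 genes matched the RefSeq annotation of ASM294v3, not the files' build, which gave lengths, intron numbers, overlaps and gene order only. No coordinates or sequences are printed.

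Genes given in full were, by rule, the 10 called genes that rose most and the 10 that fell most at a mean count of at least 50, the extremes of each role and of level, and those not called. Up to 3 other splicing genes per direction were named by size of change. The remaining spliceosome genes are given by their change alone, except sap18, whose groups overlapped. Levels are also given for prp43, dsk1, gta1, rps1401 opposite aar2 and some other overlapping features, all chosen after their values were seen. Features overlapping the 20 leading genes are named, a choice made after the values were seen. Roles, members and lists were chosen with earlier results of these data known. Of the listed names, sad1 and spp2 turned out to be other genes and were left out, and names absent from the table are not analysed here.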

Additional observations from a re-analysis of the deposited data

How the results depend on the processing

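The number of spliceosome protein genes called higher stayed between 15 and 24 and the number called lower between 20 and 35 over the 14 alternatives. With protein-coding features alone, 20 genes were called lower in place of 32. Among the counts of higher and of lower calls, this alone moved by more than 1.5 times. The number not called rose from 15 to 23 with DESeq2. The fit on protein-coding features alone centred these features at a median of -0.00, in place of -0.05 in the main fit. With library totals alone the counts were 15 and 35, with upper-quartile scaling 19 and 29, and with DESeq2 15 and 26. Leaving out each library gave 15 to 17 higher and 29 to 32 lower. Of the 64 genes, 0 were called in opposite directions by any 2 fits. The 5 genes not called by any fit were luc7, prp12, cwf22, usp105 and usp101. Over the 6267 features of the main fit, calls ranged from 4755 with DESeq2 to 5091 with RLE scaling. Other sets of features gave 4111 calls of 4996 with protein-coding features alone and 5162 of 6686 with no filter.

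With the replicate number as a block 16 genes were higher and 32 lower, and 5057 of all features were called. Same-numbered libraries deviated with correlations of -0.0697, -0.0294 and -0.0622, so no shared deviation by number was seen. The labels do not say whether the numbers mark a shared day or culture, and these correlations cannot decide it.

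Every scaling is relative, so a shift common to all mRNAs cannot be detected. With 3 libraries per strain a median standard error of 0.038 on the log2 scale limits the smallest callable change, and the 2 genes with mean counts of 141 and 150 had standard errors of 0.11.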

Other observations

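In the reference annotation 38 of the 64 spliceosome protein genes overlap a tested feature, 3 of them on the same strand and 37 on the opposite strand. The 26 genes with no such overlap had 5 higher and 12 lower, with a median log2 fold change of -0.03, and the 38 with one had 12 higher and 20 lower, with a median of -0.08. Over protein-coding features 35.6% were higher and 46.8% lower. The opposite-strand partners included 11 noncoding RNAs, of which 7 were higher and 1 lower, beside 57.7% higher and 19% lower over the 1168 noncoding RNAs tested. Besides prl14 opposite ntr1 (3.27), these included prp1-antisense-1 (2.27, 1.21 ± 0.10 to 5.86 ± 0.88 CPM), srp2-antisense-1 (1.48, 2.42 ± 0.57 to 6.71 ± 0.17 CPM) and lin1-antisense-1 (1.15, 1.94 ± 0.71 to 4.26 ± 0.30 CPM). The sense genes opposite these RNAs had log2 fold changes of 0.38 for ntr1, -0.19 for prp1, -0.41 for srp2 and 0.48 for lin1. These pairs were named after their values were seen. Without the strand setting of the counting, sense and antisense reads cannot be told apart.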
